A study of Rattus norvegicus with 4 samples.

Results

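The genes described here belong to the NRF2 pathway, the cell's main transcriptional response to oxidants and electrophiles. They are Nfe2l2, which encodes NRF2 itself, its inhibitor Keap1, and the target genes Nqo1, Hmox1, Gclc, Gclm, Txnrd1, Txn1, Srxn1 and Pir. The 10 genes were chosen by their function and with the differences between 3D and 2D culture in these data already known, so those differences are given below as a description without a test. Of the 10, 9 were found among the 23360 gene symbols of the data, and the level of Srxn1 was not analysed here.

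The cultures were of INS-1 832/3, an insulin-secreting line derived from a rat insulinoma that also carries a human insulin gene, and their polyadenylated RNA was sequenced. The 2D monolayer group was seeded for standard culture without a matrix, and the 3D bioprinted group was printed in GelXA LAMININK 411 hydrogel, a gelatin-based gel with laminin that was hardened with light. Both groups had the same RPMI-1640 medium with serum, pyruvate and the reducing agent 2-mercaptoethanol, and were harvested at passage 3 after 5 days, with 2 cultures in each. The medium also held Geneticin, which selects for the insulin-producing cells. All cultures come from 1 tumor-derived line, and the bulk RNA of a culture cannot tell fewer expressing cells from less RNA per cell.

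In unstressed cells KEAP1 holds NRF2 in the cytoplasm and presents it to a CUL3 ubiquitin ligase, so that NRF2 is degraded as fast as it is made. Oxidants and electrophiles modify cysteines of KEAP1, NRF2 then accumulates in the nucleus, pairs with a small MAF protein and binds antioxidant response elements in its target genes, where the repressor BACH1 competes with it. Control of NRF2 is therefore largely on the protein, which mRNA levels do not show. Beta cells are known for low amounts of several antioxidant enzymes, and the glutathione and thioredoxin systems supplied by NRF2 targets are among their main defenses.

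Some of these genes carry the core of the antioxidant response element close to their start site. The promoter windows of RefSeq (build GRCr8) ran from 250 bases before to 50 bases after the start. They were searched on both strands for TGACNNNGC, the core of the element, and for TGACTCAGC, which is 1 spelling of that core. Bases flanking these letters were not examined. The core was found in 4 of the 10 windows available for the listed genes. They were those of Gclm, Pir, Nfe2l2 and 1 of 2 windows of Txnrd1. No window was available for Hmox1, so that gene was not searched. Of all 33469 windows of the same length, 12.06% held it, and of the 9833 windows of genes tested here 1475 (15%) did. TGACTCAGC was in 0.42% of all windows. The match of Nfe2l2 lay after the start site and is not printed. The sites of the other 3 genes are shown because these include the genes of the list with the largest and the smallest difference reported below. Each is given 5′ to 3′ in the direction of the gene, with the match in capitals, and in all of them the core reads on the opposite strand. Pir had a pair of matches, at chrX:33851135-33851183 and chrX:33851050-33851078 (minus strand), and the second, directly before the start site, holds TGACTCAGC. The Gclm site lies at chr2:213031943-213031991 (plus strand) and the Txnrd1 site at chr7:22755954-22756002 (minus strand).
Pir, distal match: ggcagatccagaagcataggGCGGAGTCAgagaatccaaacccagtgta
Pir, match before the start site: ccggaggcccacaacaaagcGCTGAGTCA
Gclm: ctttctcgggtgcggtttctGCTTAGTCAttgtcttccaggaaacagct
Txnrd1: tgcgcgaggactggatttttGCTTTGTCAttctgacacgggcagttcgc
Positions are counted from the start site of each window, which was the end of the gene in the RefSeq gene table for 5 of the 9 windows of measured genes, so that a gene may also start elsewhere. A match is a run of letters and not a shown binding site, and elements farther from the start site lie outside these windows.

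Expression was measured as TPM, the share of all transcripts that belong to a gene after correction for length, which can be compared between genes. The 4 cultures had 19355 to 19959 transcripts above 0, and TPM do not carry the sequencing depth. Differences are on log2(TPM + 1) after scaling between cultures, for the 11960 genes with a mean of at least 1 TPM, and "called" means an adjusted p below 0.05 in limma. The design allows no two-sided exact permutation p under 0.333 for any one gene, and calls therefore depend on the variance that limma borrows from the other genes. The replicates are labelled biological, and the p-values measure the spread between these cultures of 1 line only. The 8 beta cell markers examined were present in all cultures, with a summed level of 147102 to 160054 TPM in 2D and 157294 to 169974 TPM in 3D. Most of that sum was Ins1, at 114003 and 126460 TPM in 2D and 127527 and 137822 TPM in 3D. In deposited TPM, Ins1, Iapp, Slc2a2 and Nkx6-1 were higher in both 3D cultures. Ins2, Pdx1 and Pcsk1 were lower in both, and Chga overlapped. Of the 4 endocrine markers of other islet cells, Ghrl was at 0, Sst and Ppy stayed at or below 0.299 TPM, and Gcg gave nearly all of the sum, which was 42.1 and 74.2 TPM in 2D and 124 and 155 TPM in 3D. The fibroblast, endothelial and immune lists, with 4, 4 and 5 genes matched, summed to at most 2.34, 1.68 and 1.53 TPM, and Dcn, Lum, Cdh5 and Ptprc were listed at 0. The part of the Gcg difference in the results below was not tested.

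The NRF2 pathway genes were lower in 3D culture with 1 exception. Of the 9 genes measured, 8 had a log2 difference below 0, and Gclc was above it. Among all genes tested, 50.5% had a log2 difference below 0. The median over the 9 genes was -0.35, beside -0.0031 over all genes tested. The largest difference was that of Pir at -1.16, followed by Gclm at -0.77 and Nqo1 at -0.65, and the smallest was that of Txnrd1 at -0.13. In the fit across all genes, 6 of the 9 were called, 5 of them lower and Gclc higher, where 38.0% of all genes were called, 19.5% lower and 18.5% higher. Because the genes were selected with this contrast in view, nothing is read from that count. The scaled values of the groups did not overlap for any of the 9, as for 75.5% of all genes, and on TPM as deposited they overlapped for Hmox1 and Txnrd1. Without 3D bioprinted replicate 1 the fit called 1 of the 9, and without 3D bioprinted replicate 2 it called 3, while the log2 difference of each gene kept its sign.

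**Figure D1:**
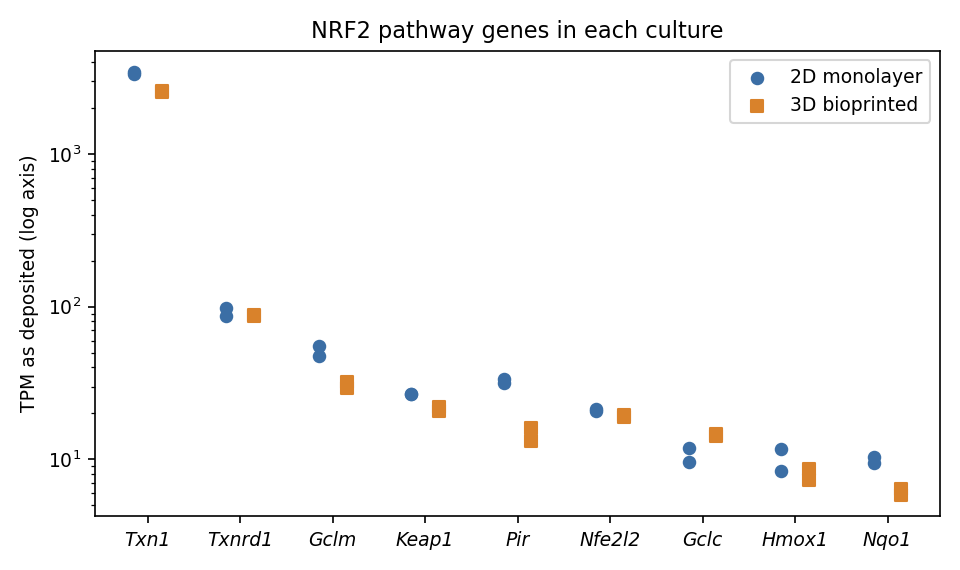
Level of each NRF2 pathway gene in each culture, as deposited TPM on a log axis, with genes ordered by their mean; circles are the 2 monolayer cultures and squares the 2 bioprinted cultures. Txn1 lies far above the rest, the squares of Pir, Gclm and Nqo1 lie well below their circles, and Gclc is the 1 gene with its squares above.

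The levels span a wide range. Txn1 was the gene with rank 30 by mean TPM in these cells, while Nqo1, at the lower end, had rank 8296. In 2D culture the order by mean was Txn1, Txnrd1, Gclm, Pir, Keap1, Nfe2l2, Gclc, Hmox1 and Nqo1, and the last 3 overlapped between cultures. In 3D culture Pir came after Keap1 and Nfe2l2, and its 2 values enclosed those of Gclc. All other neighbours in the 3D order were apart in both cultures.

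Both regulators were lower in 3D culture, Nfe2l2 by little and Keap1 by the median of the list. Nfe2l2, the transcription factor of the pathway, had 21.4 and 20.8 TPM in 2D and 18.8 and 19.7 TPM in 3D culture. Its log2 difference was -0.17 (standard error 0.061), which corresponds to 0.890 times the 2D value of scaled TPM + 1. Both 3D cultures lay below both 2D cultures, by a small margin. Keap1, the adaptor that hands NRF2 to its ubiquitin ligase, had 26.7 and 26.6 TPM in 2D and 20.7 and 22.2 TPM in 3D culture. The log2 difference was -0.35 (standard error 0.065). The 2D cultures were nearly equal and the 3D cultures were both lower. The ratio of Keap1 to Nfe2l2 went from 1.25 and 1.28 in 2D to 1.10 and 1.13 in 3D culture.

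**Figure D2:**
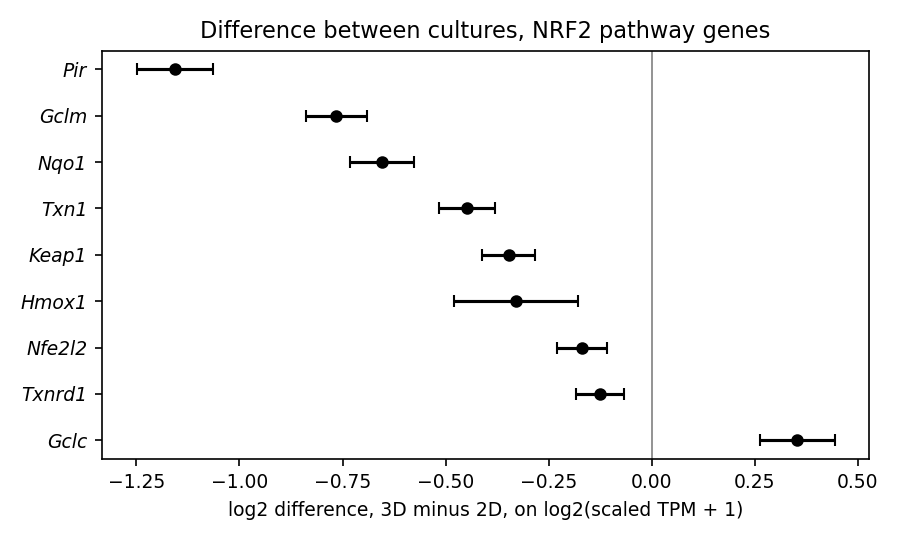
Log2 difference between 3D and 2D culture on log2(scaled TPM + 1) for each NRF2 pathway gene; points are differences of group means with 2 cultures in each group, and bars are ± 1 standard error from limma. Pir lies at -1.16, Gclc at 0.35 is the only gene right of 0, and the bars of Hmox1 are the widest.

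Among the detoxifying enzymes, Nqo1 was clearly lower and Hmox1 was variable. Nqo1, a quinone reductase widely used as a readout of NRF2 activity, had 10.3 and 9.55 TPM in 2D and 5.86 and 6.42 TPM in 3D culture. In scaled TPM + 1 the 3D value was 0.635 times that in 2D, a log2 difference of -0.65 (standard error 0.078). The distance between the groups was several times the distance between cultures of a group. Hmox1, which encodes the inducible heme oxygenase, had 11.8 and 8.45 TPM in 2D and 8.71 and 7.32 TPM in 3D culture. The log2 difference of -0.33 had a standard error of 0.15, and it was -0.15 without 2D monolayer replicate 1 and -0.52 without 2D monolayer replicate 2. The deposited values of the groups overlapped, and the size of the difference depends on which monolayer culture is used.

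The subunits of the enzyme that makes gamma-glutamylcysteine, the first and limiting step of glutathione synthesis, went opposite ways. Gclc, the catalytic subunit, had 11.9 and 9.69 TPM in 2D and 14.6 and 14.2 TPM in 3D culture. The log2 difference was 0.35 (standard error 0.090), and both 3D cultures were higher. Gclm, the modifier subunit that raises the activity of GCLC, had 55.2 and 47.7 TPM in 2D and 29.4 and 32.0 TPM in 3D culture. The log2 difference was -0.77 (standard error 0.073), with the 3D value of scaled TPM + 1 at 0.588 times that in 2D. The ratio of Gclm to Gclc was therefore 4.64 and 4.92 in the 2D cultures and 2.01 and 2.25 in the 3D cultures. The modifier mRNA remained the more abundant of the pair in TPM in all 4 cultures. The Gclm promoter is the one printed above with a core match 172 bases before the start, and the Gclc window held none.

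In the thioredoxin system the carrier protein was lower in 3D culture, and its reductase lay close to its 2D level. Txn1, thioredoxin, the small protein that passes electrons to peroxiredoxins and ribonucleotide reductase, had 3437 and 3337 TPM in 2D and 2548 and 2568 TPM in 3D culture. Its log2 difference was -0.45 (standard error 0.068). Within each group the cultures were close, and the 3D cultures were both lower. Txnrd1, the cytosolic selenoenzyme that recharges thioredoxin with NADPH, had 98.3 and 87.5 TPM in 2D and 87.8 and 87.3 TPM in 3D culture. The log2 difference was -0.13 (standard error 0.059), and the deposited values of the second monolayer culture lay between those of the 3D cultures. The log2 difference was -0.081 without 2D monolayer replicate 1 and -0.17 without 2D monolayer replicate 2. Of the 2 transcripts listed for Txnrd1, ENSRNOT00000089545.1 was at 0 in all cultures and ENSRNOT00000013613.7 carried the whole level. The other 8 genes are listed with 1 transcript each, so no shift between isoforms could be seen.

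Pir encodes pirin, an iron-binding nuclear protein of the cupin family that is known as an NRF2 target. It had 33.8 and 31.8 TPM in 2D and 13.2 and 16.1 TPM in 3D culture, the largest difference of the list. In scaled TPM + 1 the 3D value was 0.448 times that in 2D, and the log2 difference was -1.16 (standard error 0.092). The cultures of each group were close to each other and far from the other group, and the difference ran from -1.27 to -1.04 when a culture was left out or a setting was changed. Pir is also the gene with 2 core matches in its promoter window, 1 of them TGACTCAGC directly before the start site. The core was also present in windows of Txnrd1 and Nfe2l2, which had the smallest differences, and was not found in that of Nqo1.

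The genes with the most similar pattern over the 4 cultures were looked up for Nfe2l2 and Pir, as the smallest Euclidean distance between centred log2 values among 7616 other genes with a mean of at least 10 TPM. For Nfe2l2 they included Sdc2, Emc2, Baiap2 and Ctbp1, at distances of 0.0064 to 0.013 on the log2 scale. For Pir they were LOC100363469, Pclaf, Creld2, Phlda3 and Cdkn1a, at distances of 0.029 to 0.15. Cdkn1a and Phlda3 are known p53 targets, Pclaf encodes a factor bound to PCNA during DNA replication, and Creld2 encodes a protein induced by stress of the endoplasmic reticulum. With 4 cultures in 2 groups, likeness is set mainly by the size of the group difference.

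The other genes of the pathway were taken from 7 lists of genes by role. These lists were written with earlier results of these data known, so their counts, shares and adjusted p are not independent evidence. Of 88 genes listed, 86 were matched and 69 had a mean of at least 1 TPM. In limma 26 of these 69 fell, 7 rose and 36 were not called. The share called was 47.8%, beside 38.0% of all genes (19.5% lower and 18.5% higher). Of the 69, 49 had a log2 fold change below 0, beside 50.5% of all genes tested. The median log2 fold change of the 69 was -0.14, beside -0.0031 over all genes tested. The count depends on the 3D cultures, since 1 of the genes, Txnip, was called without 3D bioprinted replicate 1 and 12 without 3D bioprinted replicate 2.

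**Figure D3:**
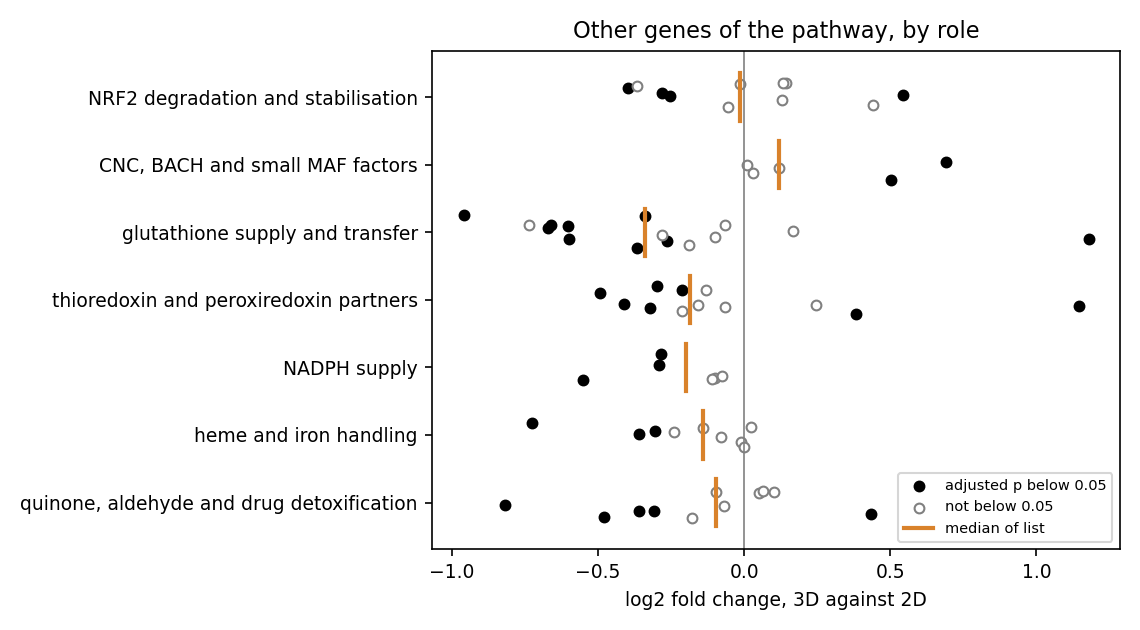
Log2 fold change of the 69 other pathway genes tested, in 7 lists by role; each point is 1 gene, filled where the adjusted p in limma was below 0.05, and the vertical bar is the median of the list. The lists of glutathione and thioredoxin genes hold 8 and 5 of the 26 filled points left of 0, and the list of CNC, BACH and small MAF factors has no point left of 0.

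Among the partners and competitors of NRF2 on DNA, 2 of the 5 genes tested rose and 3 were not called. The share called, 40%, stood beside 38.0% of all genes called in either direction and 18.5% called higher. Bach1, the repressor that competes with NRF2 for the same elements, had 7.28 and 5.39 TPM in 2D and 10.6 and 11.6 TPM in 3D culture. It rose by 0.69 on the log2 scale (standard error 0.12, adjusted p = 0.0114 in limma). Mafk, a small MAF protein that pairs with either NRF2 or BACH1, had 23.2 and 21.6 TPM in 2D and 34.5 and 31.7 TPM in 3D culture (log2 fold change 0.50, standard error 0.070, adjusted p = 0.0071 in limma). Mafg, Maff and Nfe2l1 were not called, with log2 fold changes of 0.030, 0.12 and 0.011. The ratio of Nfe2l2 to Bach1 was 2.94 and 3.85 in 2D and 1.78 and 1.70 in 3D culture. Without 3D bioprinted replicate 1 the adjusted p in limma was 0.0816 for Bach1 and 0.0747 for Mafk, and without 3D bioprinted replicate 2 it was 0.0791 for Bach1.

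Of 11 genes that control the degradation or stability of NRF2, 3 fell, 1 rose and 7 were not called. This share of 36.4% was near the 38.0% of all genes. Rbx1, the RING subunit of the CUL3 ligase, had 365 and 422 TPM in 2D and 305 and 308 TPM in 3D culture (log2 fold change -0.40, adjusted p = 0.0292 in limma). Dpp3, a peptidase known to bind KEAP1, fell by 0.25 on the log2 scale (adjusted p = 0.0202 in limma). Gsk3b, whose kinase marks NRF2 for a second degradation route through Btrc, rose by 0.54 on the log2 scale (adjusted p = 0.0163 in limma). Cul3, Sqstm1 and Btrc were not called and had log2 fold changes of 0.14, -0.054 and 0.13. The calls of Rbx1, Dpp3 and Gsk3b were lost when either 3D culture was left out, and those of Rbx1 and Gsk3b also with no filter on low genes (adjusted p = 0.055 and 0.0512 in limma).

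Of 15 genes of glutathione supply and transfer tested, 8 fell, 1 rose and 6 were not called, a share called of 60% beside 38.0% of all genes. The median log2 fold change of these 15 was -0.34. Glrx, glutaredoxin, which uses glutathione to reduce mixed disulfides, had 34.8 and 37.8 TPM in 2D and 18.4 and 19.1 TPM in 3D culture. It fell by 0.96 on the log2 scale (standard error 0.080, adjusted p = 0.0037 in limma). Gsr, glutathione reductase, which regenerates glutathione with NADPH, had 99.9 and 93.4 TPM in 2D and 63.3 and 67.3 TPM in 3D culture (log2 fold change -0.60, adjusted p = 0.0041 in limma). Ggct, an enzyme of the gamma-glutamyl cycle, fell by 0.66 on the log2 scale (adjusted p = 0.0046 in limma). In all 3 the groups were far apart and the cultures within a group close. The 1 rise, named here after its values were seen, was that of Mgst2, a microsomal glutathione transferase, from 8.11 and 6.83 TPM in 2D to 21.2 and 16.4 TPM in 3D culture (log2 fold change 1.18, standard error 0.14, adjusted p = 0.0053 in limma). Gss, the second enzyme of glutathione synthesis, had a log2 fold change of -0.10 and was not called. Gstm1 and Gstm4 belong to a family of near-identical genes among which reads can be split, and their values are uncertain. Without 3D bioprinted replicate 1, the adjusted p was 0.0525 for Glrx, 0.0569 for Gsr and 0.0587 for Ggct.

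Around thioredoxin, 5 of 12 genes tested fell, 2 rose and 5 were not called, a share called of 58.3% beside 38.0% of all genes. Prdx1, a peroxiredoxin that removes peroxide with electrons from thioredoxin, had 790 and 790 TPM in 2D and 584 and 571 TPM in 3D culture. It fell by 0.49 on the log2 scale (standard error 0.061, adjusted p = 0.0057 in limma), beside a difference of -0.45 for Txn1. Txn2, the mitochondrial thioredoxin, fell by 0.30 on the log2 scale (adjusted p = 0.0136 in limma). Txnip, which binds and inhibits thioredoxin and is known to be induced by glucose, had 102 and 110 TPM in 2D and 247 and 238 TPM in 3D culture. It rose by 1.14 on the log2 scale (standard error 0.079, adjusted p = 0.0035 in limma) and was the 1 gene of the 69 still called with any single culture left out. The ratio of Txn1 to Txnip was 33.7 and 30.3 in 2D and 10.3 and 10.8 in 3D culture. Prdx1 and Txn2 lost their calls when either 3D culture was left out.

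**Figure D4:**
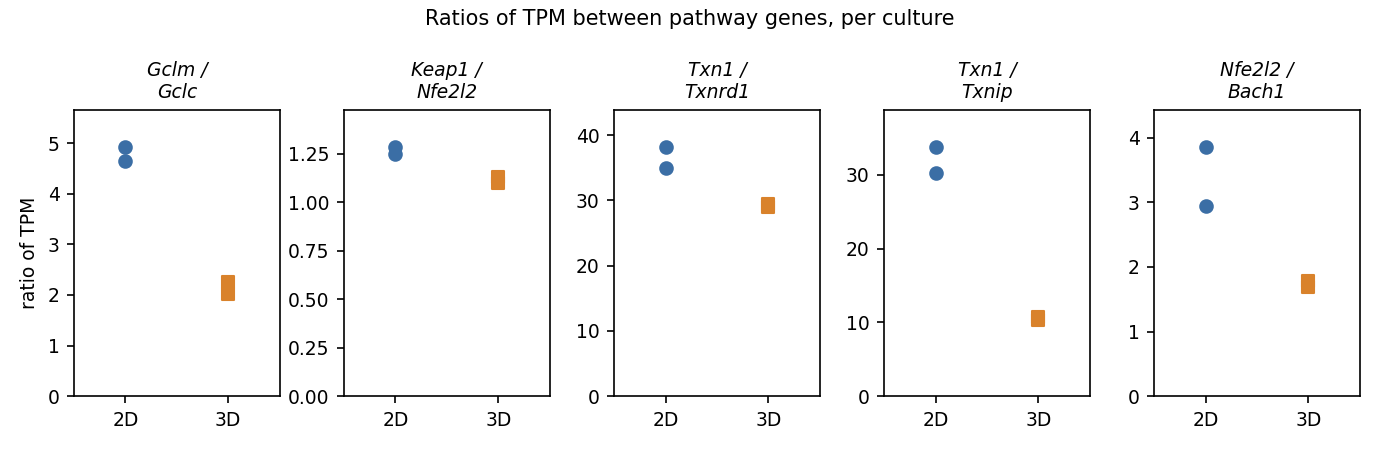
Ratio of deposited TPM between 5 pairs of pathway genes in each culture, with circles for the 2 monolayer and squares for the 2 bioprinted cultures; each vertical axis starts at 0. All 5 ratios were lower in both 3D cultures, and the pairs were picked with their values known.

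Of the 6 genes tested that supply NADPH, 3 fell and 3 were not called, where 38.0% of all genes were called and 19.5% fell. Taldo1, transaldolase of the pentose phosphate pathway, had 189 and 195 TPM in 2D and 134 and 135 TPM in 3D culture (log2 fold change -0.55, standard error 0.062, adjusted p = 0.0050 in limma). Me1, the cytosolic malic enzyme, and Pgls, the lactonase of the pentose phosphate pathway, fell by 0.28 and 0.29 on the log2 scale (adjusted p = 0.0225 and 0.0451 in limma). Among heme and iron genes, 3 of 9 fell and 6 were not called. This share of 33.3% stood beside 38.0% of all genes called in either direction and 19.5% called lower. The 3 that fell were Blvrb, Blvra and Hmox2. Blvrb, a biliverdin reductase, had 42.5 and 40.5 TPM in 2D and 25.7 and 25.2 TPM in 3D culture (log2 fold change -0.73, standard error 0.057, adjusted p = 0.0036 in limma). Blvra, the other biliverdin reductase, and Hmox2, the constitutive heme oxygenase, had log2 fold changes of -0.36 and -0.31 (adjusted p = 0.0383 and 0.0266 in limma). The ferritin genes Fth1 and Ftl1, which have near-identical copies elsewhere in the genome and are uncertain for that reason, were not called, at log2 fold changes of -0.14 and -0.00046. Pgls, Blvra, Hmox2 and Me1 were past the threshold in 5, 7, 8 and 9 of 13 other settings, and Taldo1 and Blvrb lost their calls without 3D bioprinted replicate 1.

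In the list of quinone, aldehyde and drug detoxification, 4 of 11 genes tested fell, 1 rose and 6 were not called, a share called of 45.5% beside 38.0% of all genes. Aldh1a1, a retinaldehyde dehydrogenase, had 4.90 and 4.99 TPM in 2D and 2.63 and 2.28 TPM in 3D culture (log2 fold change -0.82, standard error 0.11, adjusted p = 0.0062 in limma). Ugdh, which makes UDP-glucuronic acid for conjugation, fell by 0.48 (adjusted p = 0.0067 in limma) and Akr1a1, an aldehyde reductase, fell by 0.31 on the log2 scale (adjusted p = 0.0141 in limma). The rise was that of Abcc1, an exporter of glutathione conjugates, named here after its values were seen, with a mean of 7.91 TPM in 2D and 11.3 TPM in 3D culture (log2 fold change 0.44, adjusted p = 0.0215 in limma). The quinone and aldehyde reductases Cbr1 and Cbr3 were not called, with log2 fold changes of 0.10 and -0.097. Aldh1a1 and Ugdh lost their calls without 3D bioprinted replicate 1, and Akr1a1 when either 3D culture was left out.

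The promoter windows of these other genes held the core TGACNNNGC in 17 of 84 cases, or 20.2% beside 15% for genes tested, and TGACTCAGC in 4, those of Prdx1, Me1, Gstp1 and Ephx1. Of these 4, Prdx1 and Me1 are shown because both were among the genes that fell. The sites lie at chr5:135383751-135383799 (plus strand) and chr8:96540383-96540431 (minus strand) of GRCr8, with the match in capitals as above.
Prdx1: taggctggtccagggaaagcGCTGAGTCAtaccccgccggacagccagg
Me1: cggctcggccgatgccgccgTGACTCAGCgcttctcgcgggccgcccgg
Ephx1, with the same letters in its window, was not called, and Gstp1 lay below 0.1 TPM, so the letters were also present in genes that did not fall or were not tested.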

How the data were processed

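Messenger RNA of 2 monolayer and 2 bioprinted INS-1 cultures was analysed, with groups and replicate numbers taken from the labels. The authors quantified stranded 75-base single-end reads with Salmon 1.2 after FastQC 0.11.8, against an rn4 reference with human insulin added as the methods state, and deposited TPM per transcript. Clone-based gene names in the files are of a form used in a later rat assembly, so the annotation version is uncertain. The DESeq2 test of the methods needs counts and was not repeated.

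The TPM of all transcripts of a symbol were added up. After removal of genes averaging under 1 TPM, the cultures were scaled by the trimmed-mean-of-M method without weights (trim fractions 0.3 for M and 0.05 for A, factors 0.960 to 1.02). The values log2(TPM + 1) were fitted with limma 3.58.1 (empirical Bayes with trend) in R 4.3.3. Adjusted p are Benjamini-Hochberg values over 11960 genes. Fold changes on this scale understate changes of low genes. No value above 0 was identical between cultures on any transcript. The steps were run on simulated data with the same spread for every gene and a small part of the genes changed. That run does not cover spread that differs between genes, or the dependence of calls on single cultures.

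The genes and lists were chosen with earlier results of these data known. Named other genes are the 3 with the smallest p in each list among those called with groups apart, besides those said to be named after their values were seen and a few uncalled genes given for comparison. Some genes that the rules select are not reported here. Symbols and promoters came from RefSeq GRCr8. The alternatives tried were the scaling, the filter, the pseudocount, the trend, a replicate block, single transcripts, the threshold and each culture left out.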

Additional observations from a re-analysis of the deposited data

How the results depend on the processing

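With an adjusted p below 0.01 in place of 0.05, 1418 of all genes, 12 of the other pathway genes and 10 of the 20 named by rule were called. When single cultures were left out, the calls ran from 136 to 4515 over all genes, from 1 to 36 of the other pathway genes and from 1 to 20 of those named, and were fewest without 3D bioprinted replicate 1; the remaining culture of that group is then assumed to vary like the monolayer cultures, and the cause was not tested. The median log2 difference of the NRF2 pathway genes ran from -0.38 to -0.45 in these fits. Under the 12 alternatives with a value, each of the 9 genes kept its sign. No value changed sign among the 20 named other genes. The other settings left the total counts within 1.5 times those reported, but with no filter on low genes the other pathway genes that rose were 4 in place of 7 (24 called in all). The replicate numbers are not stated to mark a shared day or batch, and deviations of same-numbered cultures had a correlation of -0.0060 across genes; a fit with the replicate block called 36 other pathway genes and 4814 genes in all, and all 20 named genes kept their calls. TPM carry no depth, so no counting error is attached to low values.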

Other observations

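Of the other pathway genes, 17 lay below the mean of 1 TPM and were not tested, and 6 of them were listed at 0 in all 4 cultures, among them Nqo2, Gsta2, Gsta3 and Aldh3a1. Slc7a11, the cystine transporter that feeds glutathione synthesis and a well known NRF2 target, had 0.286 and 0.162 TPM in 2D and 0.207 and 0.311 TPM in 3D culture. Its partner chain Slc3a2, which also serves other amino acid transporters, had 134 and 125 TPM in 2D and 125 and 130 TPM in 3D culture. Osgin1, an NRF2 target that inhibits growth, had 0.897 and 0.479 TPM in 2D and 0.721 and 0.765 TPM in 3D culture, and the groups overlapped. Gpx2, a glutathione peroxidase, was at most 0.0486 TPM.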
